A study of Mus musculus with 18 samples.

Results

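The interferon regulatory factors (IRFs) are described here in bone marrow-derived macrophages (BMDMs) of 2 mouse strains. The members were taken by gene name and are the 8 genes *Irf1*, *Irf2*, *Irf3*, *Irf4*, *Irf5*, *Irf7*, *Irf8* and *Irf9*, of 20615 genes in the table. RNA-seq was performed on 18 samples in 6 groups of 3. Control B6, AC B6 and CpG B6 were BMDMs of C57BL/6 mice, and Control SjSS, AC SjSS and CpG SjSS were BMDMs of C57BL/6.NOD-*Aec1Aec2* mice, a strain susceptible to Sjögren's syndrome that carries the NOD intervals *Idd3* (*Aec1*) and *Idd5* (*Aec2*) on the B6 background. AC groups received dexamethasone-killed apoptotic thymocytes (ACs) at 5 per BMDM for 2 h, were washed and were then kept for 3 h by the labels (4 h by the methods). CpG groups received 1 μM CpG-ODN, a synthetic ligand of the endosomal receptor TLR9, for 6 h, and control groups received neither. A figure legend of the study gives the wash and a further 3 h for all groups. The mice were 7 to 12 weeks old, and marrow was cultured for 7 days with 20% L929 supernatant, a source of the macrophage growth factor M-CSF. The supernatant was reduced to 5% before treatment in all groups. Mice were the stated source of the replicates, with n = 3 per strain, but the sources used here do not say whether the 3 conditions of a strain came from the same mice, nor which strain gave the thymocytes of these samples.

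IRFs are transcription factors that share a helix-turn-helix DNA-binding domain and recognise repeats of the bases GAAA, as in the interferon-stimulated response element (ISRE). *Irf3*, *Irf5* and *Irf7* encode proteins that wait in the cytoplasm until nucleic acid sensors or Toll-like receptors lead to their phosphorylation, after which they drive interferon and cytokine genes. *Irf9* encodes the DNA-binding subunit of ISGF3, a complex downstream of the type I interferon receptor. *Irf1* encodes an activator that interferon induces within hours, *Irf2* an antagonist at many of the same sites, and *Irf8* and *Irf4* encode factors of myeloid and lymphoid identity that bind DNA with partners such as PU.1. RNA levels do not report phosphorylation or nuclear entry of these proteins.

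The deposited values were estimated counts per gene, with totals of 30688336 to 57139662 per sample. CPM are counts in proportion to a library total that TMM (trimmed mean of M values) factors correct, and ± is the SD of 3 samples for levels and the SE for log2 fold changes. Of the 15789 genes tested with edgeR's quasi-likelihood method, all 8 IRF genes were among those with enough counts, *Irf4* with 9 to 72 counts per library and every other member with at least 983. Called genes passed the thresholds of the study's methods, an adjusted p below 0.05 with a log2 fold change beyond 1.3 in either direction, while rises and falls are stated at the adjusted p alone. Macrophage markers summed to 15590 to 23885 CPM in every library, and all 9 were detected in each group. The mean level of the T cell genes *Cd3d*, *Cd3e*, *Cd3g* and *Trac* was at most 0.127 CPM in any group. *Rag1*, a thymocyte gene of the same list, was at 0.163 CPM in AC B6 (24 counts over 3 libraries) and 0.0231 CPM in AC SjSS (3 counts). It was at 0 in the other 4 groups. *Themis*, another of them, had no counts in AC SjSS and was detected in both control groups. With library totals in place of TMM factors the median log2 fold change of all genes moved from -0.02 to -0.43 in the AC response of SjSS, from -0.05 to -0.35 in the strain difference with ACs and from -0.01 to -0.35 in the strain by AC interaction, so calls that this scaling changes are named below. Bulk RNA cannot separate more RNA per cell from more cells that express a gene.

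*Irf1*, *Irf7* and *Irf9* rose with ACs in both strains, and *Irf8* and *Irf4* fell. *Irf2* and *Irf5* rose in AC SjSS, while *Irf2* fell slightly in AC B6 and *Irf5* differed there by a log2 fold change of -0.06 that did not pass the test. In B6, 1 of the 8 genes was called in the AC response (*Irf7*), where 4.47% of all tested genes were called, and 6 of 8 passed the adjusted p alone against 38.3% of all genes. In SjSS, 4 of 8 were called (*Irf1*, *Irf7* and *Irf9* higher, *Irf4* lower) against 12.9% of all genes, and 8 of 8 passed the adjusted p alone against 58.0%. The median log2 fold change of the 8 genes was 0.04 in B6 and 1.10 in SjSS, beside 0.00 and -0.02 over all tested genes.

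The plot of levels by sample shows where the 18 libraries lay for each gene.

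**Figure D1:**
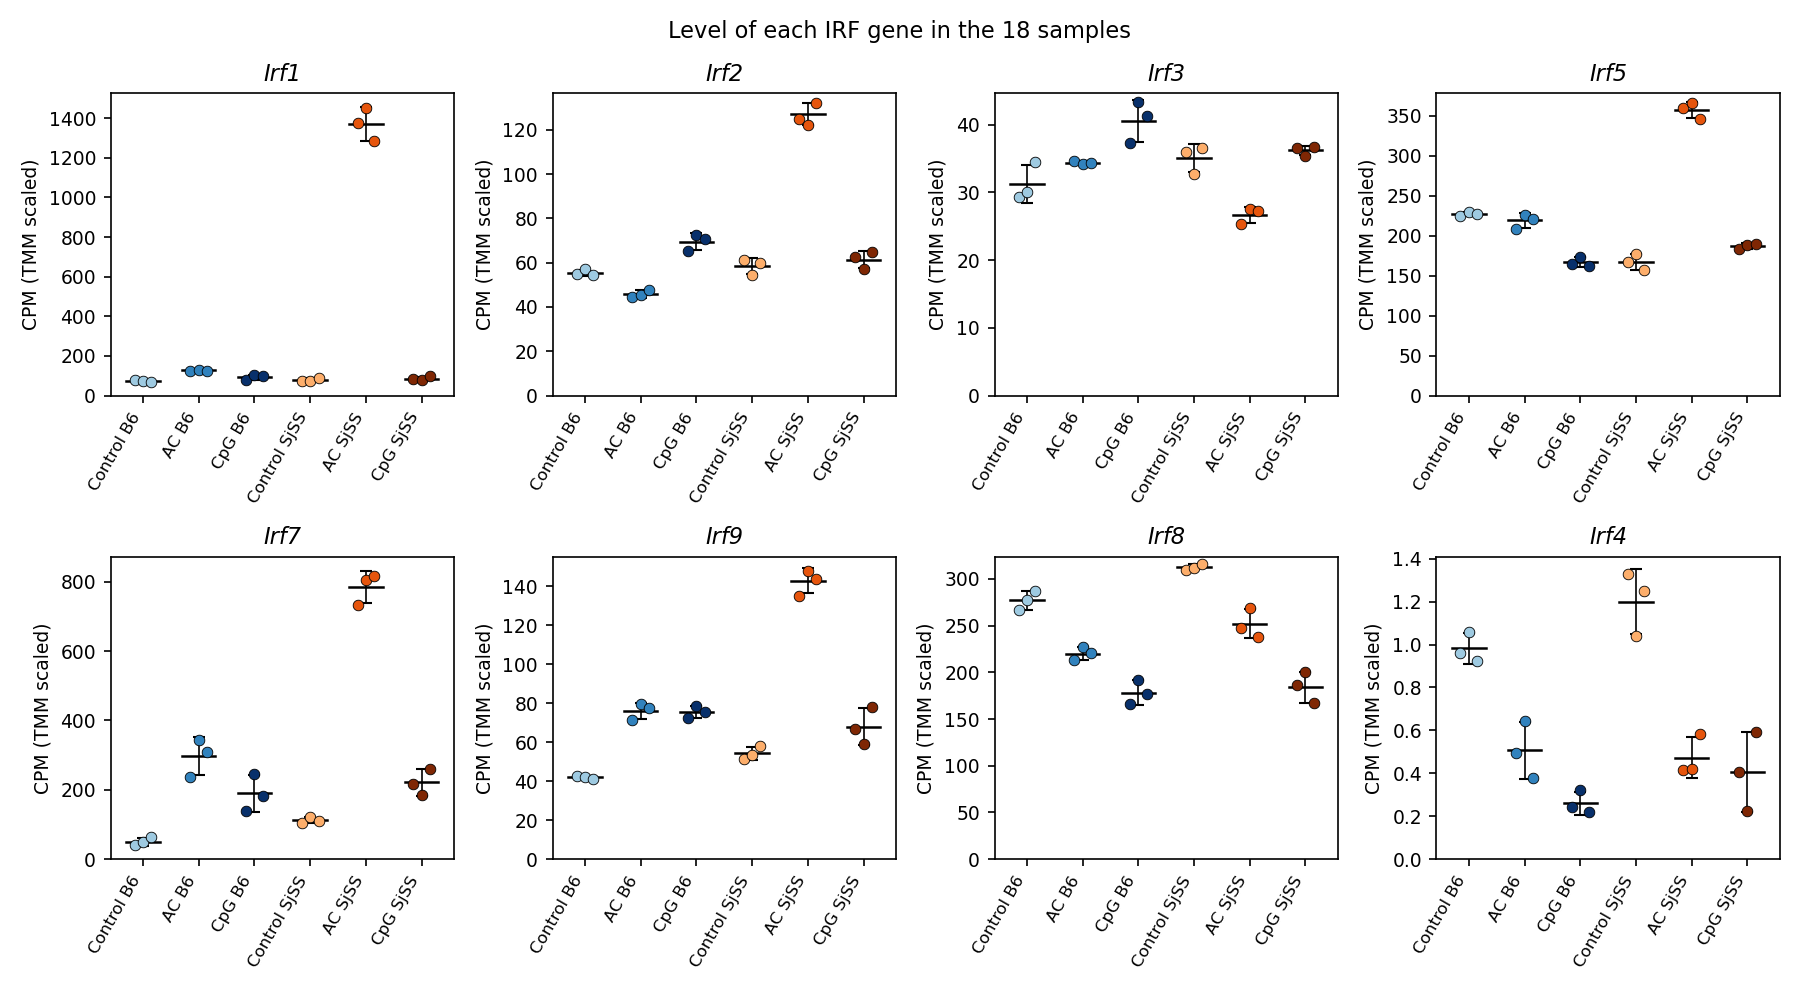
CPM (TMM scaled, linear axis from 0, a scale of its own for each gene) of the 8 IRF genes in the 18 samples. Points are samples, horizontal lines are means and bars are SD (n = 3). *Irf1* lay at 1285 to 1453 CPM in the 3 AC SjSS samples and at 68.8 to 131 CPM in the other 15.

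*Irf1* encodes the interferon-induced activator of antigen presentation and GTPase genes, and lies at chr11:53770014-53778374 (mm10, plus strand). Its level was 75.9, 74.2 and 68.8 CPM in Control B6 and 72.7, 73.4 and 90.4 CPM in Control SjSS. With ACs it was 126, 131 and 126 CPM in B6 and 1373, 1453 and 1285 CPM in SjSS. Each AC group lay above its own control with no overlap, and every AC SjSS sample was above every other library of the series. The log2 fold change was 0.81 ± 0.10 (SE) in B6 (edgeR adjusted p = 3.61e-06) and 4.12 ± 0.11 in SjSS (edgeR adjusted p = 6.78e-16), where it ranked 160 of 15789 genes from the highest. The difference between the strains' responses was 3.31 ± 0.14 on the log2 scale (edgeR adjusted p = 8.25e-12). CpG gave 77.9, 101 and 99.6 CPM in B6 and 82.6, 76.8 and 96.5 CPM in SjSS, groups that overlapped each other. The CpG response passed the adjusted p in B6 (log2 fold change 0.35 ± 0.10, edgeR adjusted p = 0.00616) but not with library totals as scaling (0.17, adjusted p = 0.171). In SjSS it was 0.11 ± 0.10 (edgeR adjusted p = 0.37).

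The 250 bases before the *Irf1* start are shown because they hold a GAS element, a palindrome that responds to interferon gamma, and an NF-κB-like site. Sequences are from RefSeq (GRCm38.p6), run 5′ to 3′ along the gene, and carry matches in capitals. Motifs were searched on both strands with the letters TTCNNNGAA for GAS, GAAA and GAAA with 2 bases of any kind between them for the ISRE core, and GGGA and CC with 4 bases of any kind between them for the NF-κB-like site, and the matches did not overlap each other in the printed windows. For *Irf1*, chr11:53769764-53770013, the capitals mark GAS at bases -90 to -82 and the NF-κB-like match at -13 to -4, on the opposite strand.
Irf1: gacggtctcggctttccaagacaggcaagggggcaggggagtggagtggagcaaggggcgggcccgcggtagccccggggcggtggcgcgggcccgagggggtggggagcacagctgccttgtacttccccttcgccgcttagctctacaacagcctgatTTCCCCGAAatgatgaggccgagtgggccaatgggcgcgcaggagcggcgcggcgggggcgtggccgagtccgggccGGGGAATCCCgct
Of 32851 promoter windows of the same length, 7.02% held the GAS letters, 17.6% the NF-κB-like letters and 2.98% the ISRE core letters. A match is a description of the letters and not a measured binding site.

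*Irf1* overlaps the gene model *Gm17334* on the opposite strand, whose log2 fold change in the AC response of SjSS was 3.22 (edgeR adjusted p = 3.68e-07). Whether the counting used strand is not given in the sources used here, so reads in the overlap cannot be told apart. The nearest gene on the higher side, *Gm12216*, lies 5044 bases away and rose by 1.82 in the same comparison (edgeR adjusted p = 0.000731). The nearest on the lower side, the DNA repair gene *Rad50*, lies 62695 bases away and fell by 0.79 on the log2 scale (edgeR adjusted p = 1.14e-08). T-lineage markers summed to 15.0 to 19.9 CPM in AC SjSS and 5.52 to 6.55 CPM in AC B6. In the controls, which received no thymocytes, they summed to 12.0 to 14.8 CPM in SjSS and 10.6 to 12.0 CPM in B6. The AC B6 sums were thus below those of Control B6. *Cd4* made up most of the sum in SjSS, at 14.0 CPM in AC SjSS and 10.3 CPM in Control SjSS. Some thymocyte genes of the list, all near the floor, stood the other way between the AC groups. *Rag1* was at 0.163 CPM in AC B6 and 0.0231 in AC SjSS, *Dntt* at 0.123 and 0.00701, *Themis* at 0.0690 and 0 and *Cd8a* at 0.182 and 0.0811. The remaining members of the list are not given here. Of the 4 T-lineage markers tested, 2 were higher in AC SjSS than in AC B6 at an adjusted p under 0.05 and 0 were lower. The part of other cells in the *Irf1* difference was not tested.

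*Irf2* encodes the factor that competes with IRF1 at shared sites. It lies at chr8:46739732-46847458 (plus strand). Its level was 54.9, 57.1 and 54.5 CPM in Control B6, 44.3, 45.6 and 47.5 CPM in AC B6, 61.4, 54.4 and 59.9 CPM in Control SjSS and 125, 122 and 132 CPM in AC SjSS. The AC B6 samples were all below their controls and the AC SjSS samples all above theirs, so the AC responses had opposite signs. The log2 fold change was -0.28 ± 0.06 in B6 (edgeR adjusted p = 0.00119) and 1.11 ± 0.06 in SjSS (edgeR adjusted p = 8.37e-12), and the difference between them was 1.39 ± 0.09 (edgeR adjusted p = 4.2e-10). With library totals as scaling that difference was 1.05, still past the adjusted p but under the fold threshold. CpG gave 65.1, 72.5 and 70.7 CPM in B6, all above the controls (log2 fold change 0.32 ± 0.06, edgeR adjusted p = 0.000138). In CpG SjSS the samples, at 62.5, 57.2 and 64.6 CPM, overlapped the controls (0.07 ± 0.06, edgeR adjusted p = 0.365).

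The stretch of the *Irf2* promoter with its matches is shown because it alone among the windows searched held the ISRE core letters, the type of site that IRFs themselves bind. It runs over chr8:46739495-46739554, bases -250 to -191 from the RefSeq start, with the ISRE core at -241 to -232 and GAS at -224 to -216.
Irf2: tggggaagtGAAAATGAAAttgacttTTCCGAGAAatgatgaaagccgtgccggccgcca
The windows of *Irf3*, *Irf5*, *Irf7* and *Irf9* held none of the 3 motifs in the letters searched, and that of *Irf4* held an NF-κB-like match at -182 to -173. In the *Irf7* window 57 of the 250 bases lie within annotated exons. Both *Irf9* windows lie past the annotated gene start, with 250 and 88 bases within annotated exons. The bases before that start were not searched.

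Within a library, the ratio of *Irf1* to *Irf2* counts sets the activator beside its antagonist and does not depend on scaling. Its log2 was 0.47, 0.38 and 0.34 in Control B6 and 0.24, 0.43 and 0.59 in Control SjSS. It was 1.51, 1.52 and 1.41 in AC B6 and 3.45, 3.57 and 3.28 in AC SjSS, with no overlap between any of these and the controls. The mean ratio was thus 10.8 in AC SjSS and 2.79 in AC B6, against 1.31 and 1.34 in the controls. With CpG it was 0.41 ± 0.13 in B6 and 0.47 ± 0.10 in SjSS on the log2 scale, where all 6 samples overlapped the range of the controls. Both genes rose in AC SjSS, *Irf1* more than *Irf2*. Counts were not divided by gene length (merged exons of 3.98 kb for *Irf1* and 7.40 kb for *Irf2*). The ratio, like the other count ratios below, therefore compares groups and not the levels of the paired genes.

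*Irf7* encodes the IRF that amplifies type I interferon and is itself an interferon-stimulated gene. It lies at chr7:141262706-141266481 (minus strand). Its level was 39.5, 47.9 and 63.0 CPM in Control B6 and 104, 122 and 110 CPM in Control SjSS. The control groups did not overlap. The strain difference without treatment was 1.16 ± 0.19 on the log2 scale (edgeR adjusted p = 0.000246), a 2.23-fold higher level in SjSS that was under the fold threshold. Without Control B6 replicate 3 it was 1.36 and was called. With ACs the level was 237, 344 and 309 CPM in B6 and 732, 806 and 817 CPM in SjSS. Every AC SjSS sample was above every AC B6 sample. The log2 fold change was 2.57 ± 0.19 in B6 (edgeR adjusted p = 6.03e-09) and 2.81 ± 0.19 in SjSS (edgeR adjusted p = 2.84e-10). The difference between these responses was 0.24 ± 0.26 (95% interval -0.30 to 0.79, edgeR adjusted p = 0.505), and with library totals it was -0.10, so no direction was assigned to it. The level with ACs was 2.65-fold higher in SjSS (log2 difference 1.40 ± 0.18, edgeR adjusted p = 3.93e-06), a difference that was 1.11 with library totals and 1.27 without AC B6 replicate 1, both under the fold threshold.

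CpG gave *Irf7* levels of 138, 244 and 183 CPM in B6 and 217, 185 and 261 CPM in SjSS, which overlapped. The response was 1.91 ± 0.19 in B6 (edgeR adjusted p = 5.43e-08) and 0.98 ± 0.18 in SjSS (edgeR adjusted p = 0.000158), and the response was smaller in SjSS by 0.93 (difference -0.93 ± 0.26, edgeR adjusted p = 0.0414). This value lay close to the threshold: leaving out 1 sample at a time, it did not pass for 12 of the 18, for example without Control B6 replicate 1 (-0.78, adjusted p = 0.104) or CpG B6 replicate 2 (-0.70, adjusted p = 0.114), nor in a fit of only the compared groups (-0.92, adjusted p = 0.0799). These responses start from controls that differ, and the levels reached with CpG differed between the strains by 0.23 ± 0.18 (95% interval -0.15 to 0.61, edgeR adjusted p = 0.42). *Irf7* overlaps the end of *Phrf1* on the opposite strand, whose log2 fold changes lay between -0.21 and 0.32 in the AC and CpG responses.

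*Irf3* encodes the constitutive partner of IRF7 downstream of STING, MAVS and TRIF, and lies at chr7:44997648-45002848 (plus strand). Its level was 29.3, 30.0 and 34.5 CPM in Control B6, 34.7, 34.2 and 34.3 CPM in AC B6 and 37.3, 43.4 and 41.3 CPM in CpG B6. In SjSS it was 36.0, 32.7 and 36.5 CPM in controls, 25.4, 27.5 and 27.2 CPM with ACs and 36.5, 35.4 and 36.7 CPM with CpG. The AC SjSS samples were the lowest of the series and overlapped no other group. *Irf3* fell by 0.39 on the log2 scale with ACs in SjSS (SE 0.07, edgeR adjusted p = 7.64e-05), and in B6 the difference was 0.14 ± 0.07 (edgeR adjusted p = 0.13; 0.21 without Control B6 replicate 3, adjusted p = 0.0219). The strain by AC interaction was -0.53 ± 0.10 (edgeR adjusted p = 0.000281). The strain by CpG interaction was -0.33 ± 0.10 by edgeR (adjusted p = 0.0505) and passed with DESeq2 (-0.36, adjusted p = 0.0118). With CpG *Irf3* rose in B6 (0.38 ± 0.07, edgeR adjusted p = 0.000102), and in SjSS the difference was 0.04 ± 0.07 (edgeR adjusted p = 0.615). The gene overlaps *Bcl2l12* on the opposite strand, and *Bcl2l12* differed by -0.40 in the AC response of SjSS (edgeR adjusted p = 0.0246).

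The log2 ratio of *Irf7* to *Irf3* counts within a library sets the induced kinase target beside the constitutive one. It was 0.43, 0.67 and 0.87 in Control B6 and 1.52, 1.90 and 1.60 in Control SjSS. The control samples of the strains did not overlap. It was 2.77, 3.33 and 3.17 in AC B6 and 4.85, 4.87 and 4.91 in AC SjSS, a mean ratio of 8.52 and 29.4. The CpG groups lay between controls and ACs of their own strain, at 2.18 ± 0.30 in B6 and 2.60 ± 0.22 in SjSS, and their samples overlapped each other.

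*Irf5* encodes the IRF that TLR7 and TLR9 activate through MyD88 and that drives inflammatory cytokine genes. It lies at chr6:29526625-29541871 (plus strand). Its level was 224, 230 and 227 CPM in Control B6 and 167, 177 and 157 CPM in Control SjSS, groups that did not overlap. The level without treatment was lower in SjSS (log2 difference -0.44 ± 0.05, edgeR adjusted p = 7.48e-06). With ACs it was 208, 226 and 221 CPM in B6, which overlapped the controls, and 359, 366 and 346 CPM in SjSS, above every other library. The AC response was -0.06 ± 0.05 in B6 (edgeR adjusted p = 0.421; with library totals -0.13, adjusted p = 0.0317) and 1.09 ± 0.05 in SjSS (edgeR adjusted p = 9.97e-13), with a difference of 1.15 ± 0.07 (edgeR adjusted p = 5.64e-10). The order of the strains thus turned between the conditions, with *Irf5* 0.735-fold of the B6 level in untreated SjSS and 1.63-fold of it with ACs. With CpG it was 165, 173 and 162 CPM in B6, all below the controls, and 183, 188 and 190 CPM in SjSS, all above them. The CpG response was -0.45 ± 0.05 in B6 (edgeR adjusted p = 3.86e-07) and 0.16 ± 0.05 in SjSS (edgeR adjusted p = 0.0121), and the latter did not pass with library totals (0.03, adjusted p = 0.559) or without Control SjSS replicate 3 (0.12, adjusted p = 0.0759). The strain by CpG interaction was 0.61 ± 0.07 (edgeR adjusted p = 7.47e-05). *Irf5* overlaps the end of *Tnpo3* on the opposite strand, which rose in each of the 4 responses by 0.24 to 0.43 on the log2 scale.

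*Irf9* encodes the DNA-binding subunit of ISGF3 and lies at chr14:55603571-55610030 (plus strand). Its level was 42.4, 42.3 and 41.0 CPM in Control B6 and 51.6, 53.2 and 58.2 CPM in Control SjSS. All 3 untreated SjSS samples were above the 3 of B6 (log2 difference 0.38 ± 0.08, edgeR adjusted p = 0.00251). With ACs it was 71.3, 79.4 and 77.4 CPM in B6 and 135, 148 and 144 CPM in SjSS, again with no overlap. The AC response was 0.86 ± 0.08 in B6 (edgeR adjusted p = 7.68e-08) and 1.39 ± 0.08 in SjSS (edgeR adjusted p = 1.59e-11). The difference between them was 0.53 ± 0.11 (edgeR adjusted p = 0.000878), and it was lost with library totals (0.19, adjusted p = 0.163). The SjSS response was 0.98 under that scaling, past the adjusted p and under the fold threshold. With CpG *Irf9* was 72.3, 78.8 and 75.3 CPM in B6 and 67.0, 58.9 and 77.8 CPM in SjSS, which overlapped. The CpG response was 0.85 ± 0.08 in B6 (edgeR adjusted p = 2.18e-08) and 0.32 ± 0.08 in SjSS (edgeR adjusted p = 0.00189), with an interaction of -0.53 ± 0.11 (edgeR adjusted p = 0.00775). *Irf9*, like *Irf7*, was thus higher in untreated SjSS and had a smaller CpG response there. *Irf9* overlaps the end of *Rnf31*, a gene on the same strand that rose by 1.64 in the AC response of SjSS and by 1.19 in the CpG response of B6, and reads in the overlap cannot be told apart.

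*Irf8* encodes the factor that sets monocyte and macrophage identity with PU.1, and lies at chr8:120736358-120756694 (plus strand). Its level was 267, 278 and 287 CPM in Control B6, 213, 227 and 221 CPM in AC B6 and 166, 192 and 177 CPM in CpG B6. In SjSS it was 310, 312 and 316 CPM in controls, 248, 269 and 238 CPM with ACs and 186, 200 and 167 CPM with CpG. Within each strain the 3 groups did not overlap, and the order was control, AC, CpG from high to low in both. *Irf8* fell with ACs by 0.33 ± 0.07 on the log2 scale in B6 (edgeR adjusted p = 0.000565) and by 0.31 ± 0.07 in SjSS (edgeR adjusted p = 0.000472). It fell with CpG by 0.64 ± 0.07 in B6 (edgeR adjusted p = 1.1e-07) and by 0.76 ± 0.07 in SjSS (edgeR adjusted p = 1.26e-08). The strain by AC interaction was 0.02 ± 0.09 (95% interval -0.18 to 0.21, edgeR adjusted p = 0.91) and -0.32 with library totals (adjusted p = 0.00769). The strain difference with ACs was 0.19 ± 0.07 (edgeR adjusted p = 0.0224) and -0.11 with library totals (adjusted p = 0.166), so its sign depended on the scaling. It also did not pass without AC B6 replicate 1 (0.17, adjusted p = 0.0833), AC B6 replicate 3 (0.19, adjusted p = 0.0508) or AC SjSS replicate 2 (0.14, adjusted p = 0.119). The readthrough model *Gm20388* covers the whole gene on the same strand, and reads of the pair cannot be told apart.

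The *Irf8* promoter is shown because it held 2 GAS matches and an NF-κB-like match, the kinds of letters found at *Irf1*, in a gene that fell with both treatments. It runs over chr8:120736108-120736357, with GAS at -171 to -163 and -153 to -145 and the NF-κB-like match at -58 to -49.
Irf8: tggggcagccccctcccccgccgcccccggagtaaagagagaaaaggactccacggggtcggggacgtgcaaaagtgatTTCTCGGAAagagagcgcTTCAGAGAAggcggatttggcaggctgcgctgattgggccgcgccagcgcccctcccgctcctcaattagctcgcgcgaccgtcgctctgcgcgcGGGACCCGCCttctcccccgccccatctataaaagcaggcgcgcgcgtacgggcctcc

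*Irf4* encodes a factor of lymphocytes, dendritic cells and alternatively activated macrophages and lies at chr13:30749226-30766927 (plus strand). It was the scarcest member, at 0.961, 1.06 and 0.924 CPM in Control B6 and 1.33, 1.04 and 1.25 CPM in Control SjSS. With ACs it was 0.496, 0.643 and 0.379 CPM in B6 and 0.413, 0.421 and 0.583 CPM in SjSS. With CpG it was 0.242, 0.320 and 0.217 CPM in B6 and 0.405, 0.222 and 0.594 CPM in SjSS. All 12 treated samples were below all 6 controls. *Irf4* fell with ACs by 0.94 ± 0.30 on the log2 scale in B6 (edgeR adjusted p = 0.0169) and by 1.35 ± 0.30 in SjSS (edgeR adjusted p = 0.000822), and with CpG by 1.92 ± 0.33 in B6 (edgeR adjusted p = 5.05e-05) and by 1.56 ± 0.31 in SjSS (edgeR adjusted p = 0.000277). The B6 AC response did not pass without AC B6 replicate 3 (-0.78, adjusted p = 0.0824) or Control B6 replicate 2 (-0.88, adjusted p = 0.0508). The SjSS values lay close to the fold threshold, where the AC response was -1.27 without AC SjSS replicate 1, and was also under the threshold without AC SjSS replicate 2 or Control SjSS replicate 1, and the CpG response was -1.27 without CpG SjSS replicate 2. The strain differences of *Irf4* had adjusted p values of 0.212 to 0.807, with an interval of -1.30 to 0.49 for the AC interaction and -0.58 to 1.31 for the CpG interaction. Dendritic cell markers summed to 1.26 to 4.46 CPM and B-lineage markers to 10.1 to 27.9 CPM over all libraries, and granulocyte markers to 2.40 to 12.7 CPM, all of the order of the *Irf4* level itself or above it. The part of such cells in the *Irf4* signal was not tested. *Irf8* counts exceeded *Irf4* counts 261-fold to 694-fold in the group means.

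The responses of the 8 genes are set side by side in the plot of log2 fold changes.

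**Figure D2:**
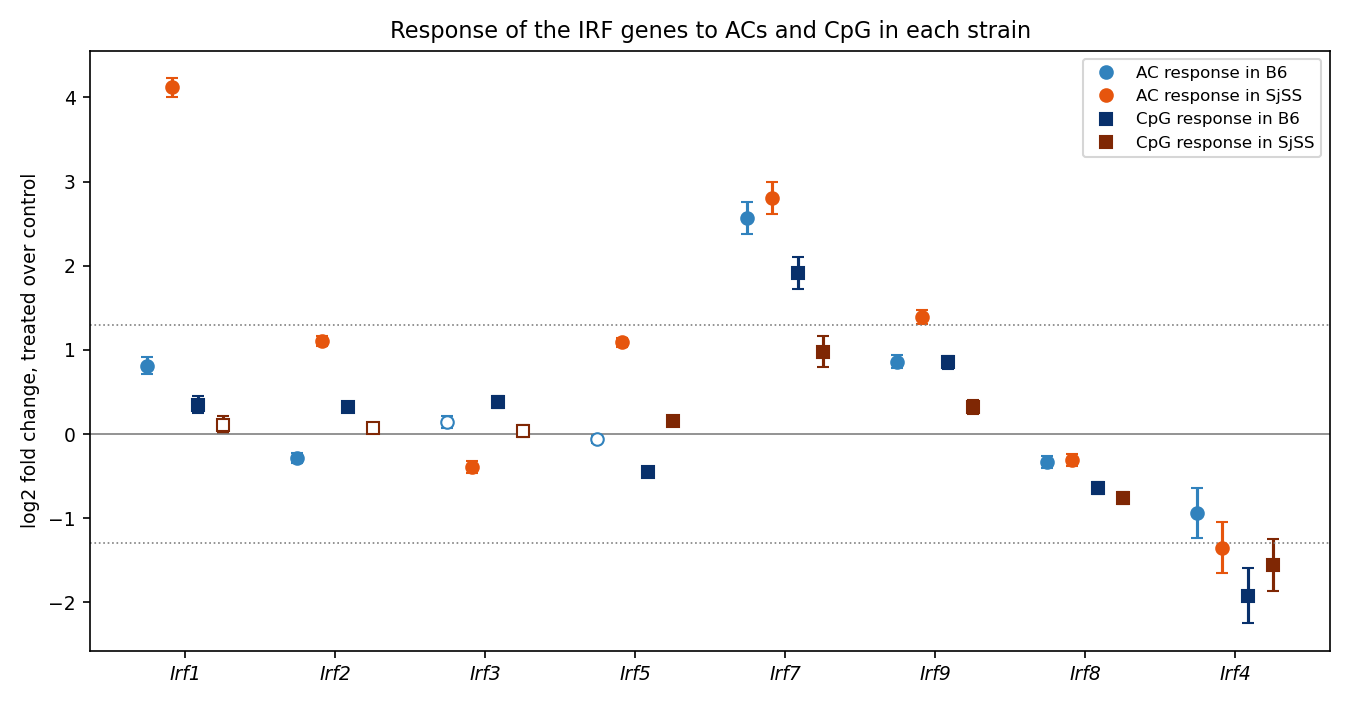
Log2 fold change (treated over control of the same strain) of the 8 IRF genes. Circles are AC responses and squares CpG responses, bars are SE, filled symbols passed the adjusted p of 0.05 and dotted lines mark the fold threshold of 1.3. *Irf1* stood at 4.12 with ACs in SjSS and at 0.81 in B6.

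In the CpG response of B6, 2 of 8 genes were called (*Irf7* higher, *Irf4* lower) against 12.7% of all tested genes, and 8 of 8 passed the adjusted p alone against 57.9%. In SjSS, 1 of 8 was called (*Irf4*) against 9.26%, and 5 of 8 passed the adjusted p alone against 54.2%. *Irf1*, *Irf2* and *Irf3* were the members that did not pass in CpG SjSS, with log2 fold changes of 0.11, 0.07 and 0.04, and all 3 signs turned with library totals. The 8 genes had a median log2 fold change of 0.34 in B6 and 0.09 in SjSS with CpG, beside -0.04 and -0.01 over all genes.

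Between the untreated strains none of the 8 genes was called by edgeR or by DESeq2, against 2.01% of all genes. By edgeR 3 of 8 passed the adjusted p alone against 19.6% (*Irf7* and *Irf9* higher in SjSS, *Irf5* lower), and 5 of 8 had an unadjusted p under 0.05. With library totals *Irf3* (0.21, adjusted p = 0.0471) and *Irf8* (0.22, adjusted p = 0.0289) passed as well, which makes 5 of 8, and *Irf8* also passed with DESeq2 (0.18, adjusted p = 0.0452). With ACs 3 of 8 were called (*Irf1*, *Irf2* and *Irf7*, all higher in SjSS) against 8.93%, and 7 of 8 passed the adjusted p alone against 49.4%, *Irf3* being the only one of these lower in SjSS. With library totals as scaling *Irf1* was the only member called there, *Irf2* having a difference of 1.17 and *Irf7* of 1.11. With CpG none was called by either tool against 2.61%, 2 of 8 passed edgeR's adjusted p alone against 19.7% and 3 of 8 had an unadjusted p under 0.05. The 2 that passed were *Irf5*, higher in SjSS (0.16 ± 0.05, edgeR adjusted p = 0.0301), and *Irf2*, lower (-0.18 ± 0.06, edgeR adjusted p = 0.0476). Leaving out 1 sample at a time, *Irf2* did not pass for 13 of the 18 (highest adjusted p = 0.217, without CpG SjSS replicate 2) and *Irf5* not for 5 of the 6 CpG samples (highest adjusted p = 0.165, without CpG B6 replicate 3). Nor did *Irf2* pass with library totals (-0.08, edgeR adjusted p = 0.346), and *Irf5* with DESeq2 size factors in edgeR (0.14, adjusted p = 0.0708). Neither passed in an edgeR fit of only the compared groups (adjusted p = 0.125 for *Irf2* and 0.072 for *Irf5*). Both passed with DESeq2 itself (adjusted p = 0.0119 and 0.0432).

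The strain by AC interaction called 2 of 8 genes (*Irf1* and *Irf2*) against 7.53% of all genes, and 5 of 8 passed the adjusted p alone against 37.9%. The strain by CpG interaction called none by edgeR or DESeq2 against 0.614%, with 3 of 8 past edgeR's adjusted p alone against 5.85% and 5 of 8 at an unadjusted p under 0.05. DESeq2 passed 5 of 8, with *Irf3* (-0.36, adjusted p = 0.0118) and *Irf2* (-0.28, adjusted p = 0.0247; by edgeR -0.25, adjusted p = 0.0909) beside the 3. The interaction with ACs was positive for *Irf1*, *Irf2*, *Irf5* and *Irf9* and negative for *Irf3*, while the interaction with CpG was positive for *Irf5* and negative for *Irf7* and *Irf9*. Both interactions share the control samples.

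**Figure D3:**
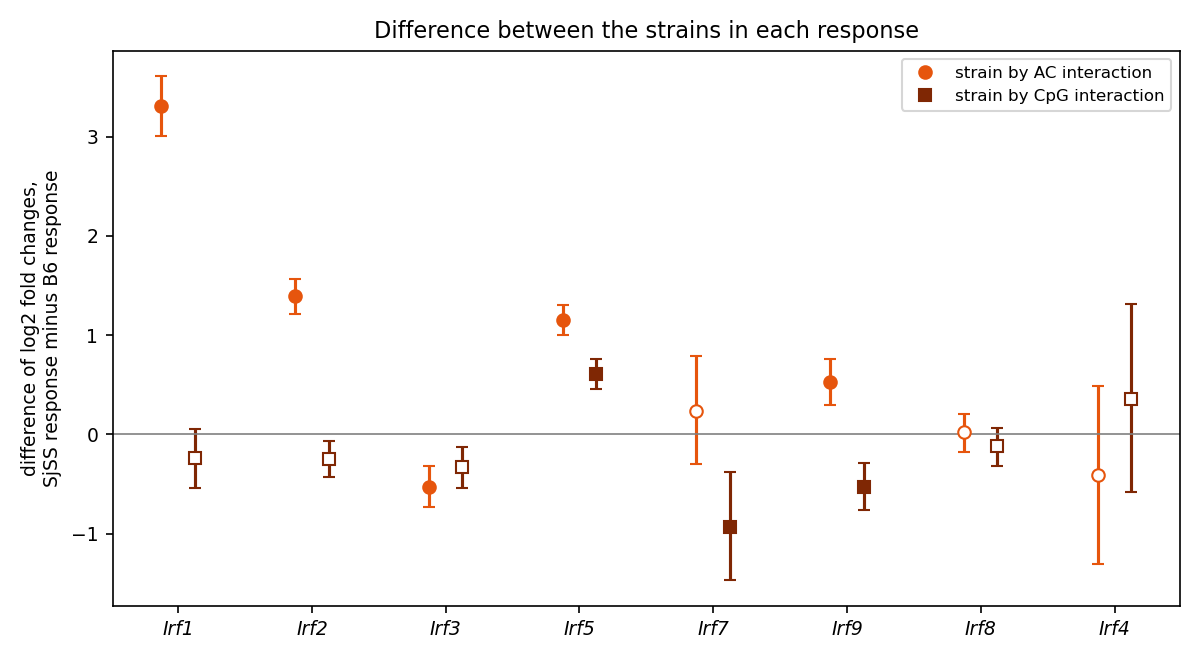
Difference between the strains' log2 fold changes (SjSS response minus B6 response) for ACs (circles) and CpG (squares), with 95% intervals. Filled symbols passed the adjusted p of 0.05. *Irf1* with ACs lay at 3.31, *Irf7* with CpG at -0.93, and the intervals of *Irf4* and *Irf8* spanned 0 for both treatments.

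ACs and CpG were also compared directly, at exposures that differ (2 h with ACs against 6 h with CpG). Whether the time after the wash was added to both is worded differently in the sources, a figure legend giving it for all groups. In B6 none of the 8 genes was called by edgeR or DESeq2 against 7.11% of all genes, 7 of 8 passed edgeR's adjusted p alone against 46.1% and the same number had an unadjusted p under 0.05. *Irf1*, *Irf4*, *Irf5*, *Irf7* and *Irf8* were higher with ACs and *Irf2* and *Irf3* lower, although *Irf3* did not pass with library totals (-0.13, adjusted p = 0.138), nor *Irf4* without AC B6 replicate 2 (0.77, adjusted p = 0.124), CpG B6 replicate 1 (0.93, adjusted p = 0.0746) or CpG B6 replicate 3 (0.86, adjusted p = 0.0896). In SjSS 2 of 8 were called (*Irf1* and *Irf7*, higher with ACs) against 9.18%, and 7 of 8 passed the adjusted p alone against 52.2%. *Irf1* was 16.1-fold higher with ACs than with CpG in SjSS and 1.38-fold higher in B6. *Irf9* differed between ACs and CpG by 0.01 ± 0.08 in B6 (95% interval -0.15 to 0.17) and by 1.07 ± 0.08 in SjSS (edgeR adjusted p = 1.28e-09).

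Levels of different members can be compared per length only, and were taken per kb of merged exons. In Control B6 *Irf5* led at 78.2 ± 1.01 CPM per kb, followed by *Irf8* at 39.3 ± 1.42, *Irf1* at 18.4 ± 0.929 and *Irf7* at 13.3 ± 3.15. *Irf3*, *Irf9* and *Irf2* lay between 7.51 and 9.09 CPM per kb, and *Irf4* at 0.200. In Control SjSS the level of *Irf5* was 57.6 ± 3.48 CPM per kb and *Irf7*, at 29.7 ± 2.46, stood above *Irf1* at 19.8 ± 2.51. In AC SjSS *Irf1* led at 345 ± 21.1 CPM per kb, before *Irf7* at 208 ± 12.3, *Irf5* at 123 ± 3.51 and *Irf8* at 35.7 ± 2.18. The sum over the 8 genes was 763 ± 28.2 CPM per kb in AC SjSS and 174 to 248 in the other 5 groups. *Irf1* made up 45.2% ± 1.57 of it in AC SjSS and 10.6% to 13.0% elsewhere. *Irf5* made up 45.1% ± 0.985 in Control B6 and 16.1% ± 0.369 in AC SjSS, although its own level was higher in the latter. *Irf8* went from 24.7% ± 0.436 in Control SjSS to 4.68% ± 0.129 in AC SjSS. With the longest transcript as length the order of the 8 genes was the same in AC SjSS and differed in the other 5 groups. In Control SjSS *Irf8* then stood above *Irf5*, and *Irf1* at 36.9 ± 4.68 CPM per kb above *Irf7* at 34.6 ± 2.87, 2 levels that differ by less than their spread. In AC SjSS that length gave *Irf1* a level of 641 ± 39.3 CPM per kb, the sum of the 8 genes 1197 ± 48.4 (271 to 361 in the other 5 groups) and *Irf1* a share of 53.5% ± 1.5 (12.6% to 16.6%).

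**Figure D4:**
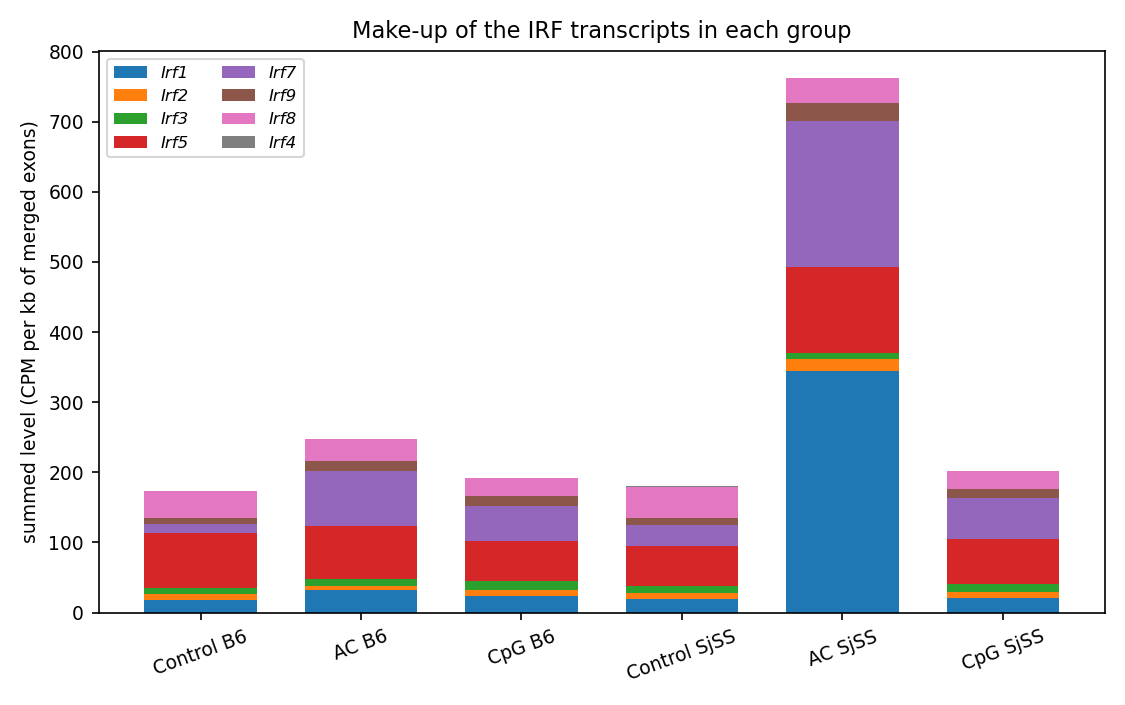
Summed level of the 8 IRF genes (CPM per kb of merged exons, linear axis from 0), stacked by gene, as the mean of 3 samples in each group. The AC SjSS bar reaches 763, and *Irf1* and *Irf7* fill most of it, while *Irf4* is too low to be seen.

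The genes around the IRFs were followed in 8 lists, chosen with earlier results of these data known, so their counts describe these samples and are no independent evidence of a direction. Over all tested genes, 4.47% were called in either direction with ACs in B6 and 12.9% in SjSS. With CpG the shares were 12.7% and 9.26%. Of 20 ISGF3 targets, the antiviral genes with ISREs, 14 were called higher with ACs in B6 and 19 in SjSS, with medians of 2.52 and 4.89 on the log2 scale. With CpG 19 were called higher in B6 and 15 in SjSS (medians 2.84 and 1.69). In untreated SjSS 16 of 20 were higher than in B6 at an adjusted p under 0.05, 2 of them called, and the list median of 0.82 stood beside -0.01 over all genes. At that adjusted p 19.6% of all tested genes passed in either direction. In the strain by CpG interaction 12 of 20 were lower and none higher, as *Irf9* was and, close to the threshold, *Irf7*. There 5.85% of all tested genes passed the adjusted p in either direction. These responses start from controls that differ. In the levels reached with CpG, 2 of 20 were lower in SjSS and 0 higher, with a median difference of -0.28. For that comparison 19.7% of all tested genes passed the adjusted p. *Cmpk2*, a mitochondrial nucleotide kinase, went from 22.2 ± 6.82 to 7031 ± 150 CPM with ACs in SjSS and from 10.3 ± 0.698 to 211 ± 20.1 CPM in B6. *Rsad2*, which encodes the antiviral enzyme viperin, reached 13463 ± 337 CPM in AC SjSS and 600 ± 58.6 CPM in AC B6. At the other end *Bst2*, which encodes the tethering protein tetherin, rose by 0.83 in SjSS (edgeR adjusted p = 1.97e-07) and 0.42 in B6 (edgeR adjusted p = 0.00103).

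Of 19 genes linked to IRF1, 5 were called higher with ACs in B6 and 17 in SjSS (medians 0.39 and 2.84). In the strain by AC interaction 15 of 19 were called higher, where 7.53% of all tested genes were called in either direction. With CpG 9 were called higher in B6 and 8 in SjSS, groups in which *Irf1* itself was at 92.9 and 85.3 CPM. *Socs1*, a feedback inhibitor of JAK kinases, went from 2.02 ± 0.523 to 313 ± 19.1 CPM with ACs in SjSS and from 3.10 ± 0.365 to 12.0 ± 1.87 CPM in B6. *Nos2*, the inducible nitric oxide synthase, was at 51.3 ± 4.76 CPM in AC SjSS, 0.515 ± 0.155 in AC B6 and 5.95 ± 2.42 in CpG B6. The immunoproteasome gene *Psmb8* rose by 1.10 on the log2 scale with ACs in SjSS (edgeR adjusted p = 1.37e-09) and *B2m*, the light chain of MHC class I, by 0.81 (edgeR adjusted p = 1.04e-08).

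**Figure D5:**
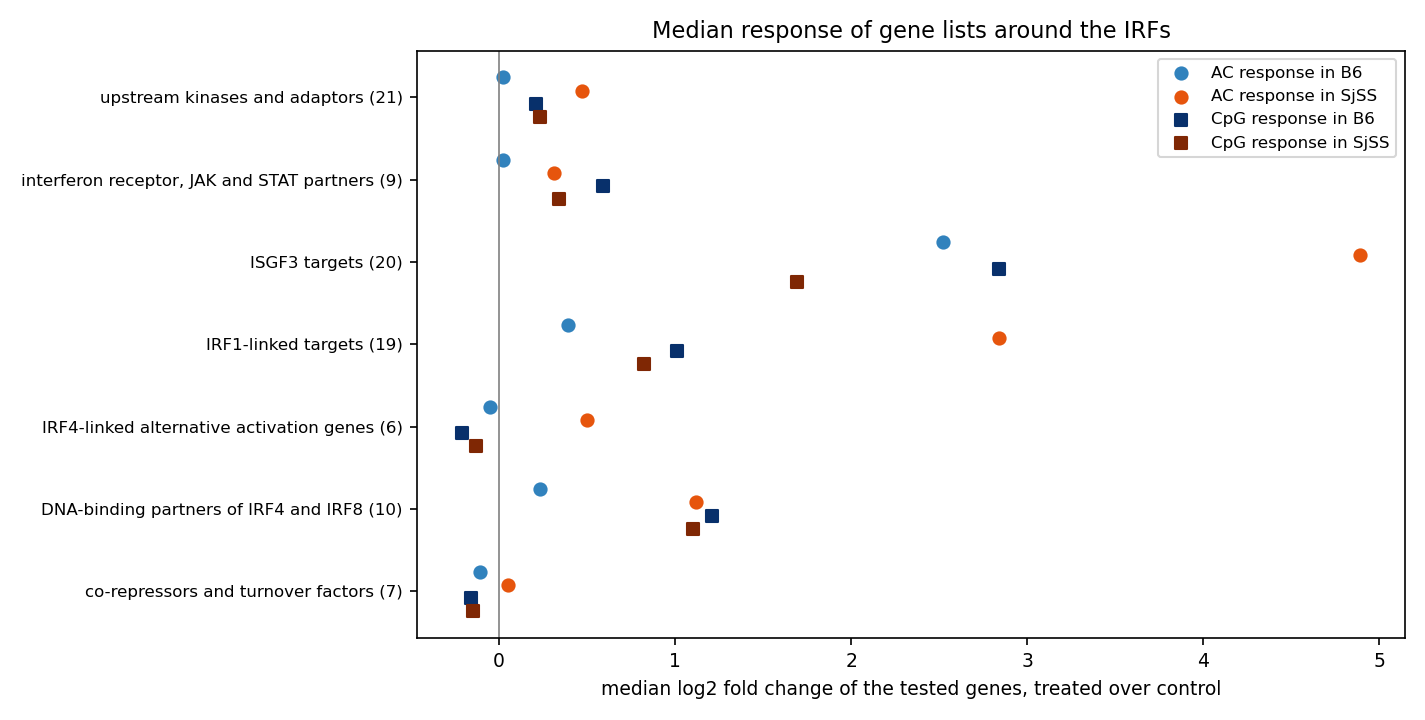
Median log2 fold change (treated over control of the same strain) of the tested genes of 7 of the 8 lists, all but the cytokine targets, with the number tested in brackets. Circles are AC responses and squares CpG responses. The ISGF3 targets lay at 4.89 with ACs in SjSS and 2.52 in B6, and the IRF1-linked targets at 2.84 and 0.39.

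Of 9 interferon receptor, JAK and STAT genes none was called with ACs in B6 by edgeR or DESeq2, where 6 of 9 had an unadjusted p under 0.05, and 3 were called higher in SjSS. Among all tested genes 4.47% were called in B6 and 12.9% in SjSS, in either direction. *Jak2*, a kinase bound to cytokine receptors, rose by 2.50 in SjSS (edgeR adjusted p = 6.06e-14) and 0.83 in B6 (edgeR adjusted p = 9.02e-07). *Ifngr1*, a chain of the interferon gamma receptor, fell with ACs by 0.62 in B6 (edgeR adjusted p = 1.63e-07) and by 0.57 in SjSS (edgeR adjusted p = 1.47e-07).

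Of 21 kinases and adaptors that lead to IRF phosphorylation, 7 were higher and 4 lower with ACs in B6 at an adjusted p under 0.05, with none called by edgeR or DESeq2 and 11 of 21 at an unadjusted p under 0.05. In SjSS 13 were higher and 5 lower, with 6 called, and the medians were 0.02 in B6 and 0.47 in SjSS. Over all tested genes 38.3% passed the adjusted p in B6 and 58.0% in SjSS, and 4.47% and 12.9% were called. *Tlr3*, the receptor for double-stranded RNA, rose by 2.74 in SjSS (edgeR adjusted p = 6.14e-13), where in B6 the difference was 0.12 (edgeR adjusted p = 0.503). *Tank*, a scaffold of the kinase TBK1, rose by 2.21 in SjSS (edgeR adjusted p = 6.56e-12) and 0.48 in B6 (edgeR adjusted p = 0.00259). *Mavs*, the adaptor of the RNA helicases upstream of IRF3, fell by 0.56 in SjSS (edgeR adjusted p = 5.53e-09), as *Irf3* did, and rose by 0.14 in B6 (edgeR adjusted p = 0.028).

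Of the 7 cytokine targets of IRF5, IRF7 and IRF8, *Il23a* (54 counts in AC SjSS, 0 or 1 in every other group) and *Ifnb1* had enough counts through AC SjSS alone, so the list is given by levels only. *Il6* was at 69.3 ± 12.0 CPM in AC SjSS, 5.27 ± 1.38 in AC B6, 23.1 ± 3.10 in CpG B6 and 15.0 ± 2.48 in CpG SjSS. *Il12b*, which encodes the p40 chain of IL-12 and is a known IRF8 target, had another order, with 99.5 ± 2.01 CPM in CpG B6, 25.0 ± 4.60 in CpG SjSS, 15.8 ± 1.96 in AC SjSS and 0.868 ± 0.372 in AC B6. *Ifnb1* was at 5.32 CPM in AC SjSS (694 counts over 3 libraries) and at 0.171 CPM in AC B6 (26 counts), with 5 to 15 counts in each of the other 4 groups.

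Of the 10 DNA-binding partners of IRF4 and IRF8, 5 were called higher with ACs in SjSS, 5 with CpG in B6 and 4 with CpG in SjSS. Among all tested genes 12.9%, 12.7% and 9.26% were called in these comparisons, in either direction. With ACs in B6 none of the 10 partners was called by edgeR or DESeq2, and 5 of 10 had an unadjusted p under 0.05. *Batf2*, an AP-1 family partner of IRF1 and IRF8, went from 4.29 ± 0.355 to 68.9 ± 6.31 CPM with ACs in SjSS and from 3.42 ± 0.336 to 5.82 ± 0.814 CPM in B6. *Cebpa*, a myeloid lineage factor, fell by 2.04 in SjSS (edgeR adjusted p = 3.11e-12) and by 0.72 in B6 (edgeR adjusted p = 1.33e-05). Of 6 tested genes of alternative activation linked to IRF4, 1 was called with ACs in SjSS against 12.9% of all genes, namely the chemokine gene *Ccl22*, which was higher (2 were called with library totals as scaling). In B6 3 were called against 4.47%, *Ccl22* higher (2.05, edgeR adjusted p = 0.00362) and *Mrc1* and the chitinase-like gene *Chil3* lower (*Chil3* -1.37, edgeR adjusted p = 0.00242). *Ccl22* was near the floor, at 0.0724 CPM in Control B6 (12 counts over 3 libraries) and 0.308 CPM in AC B6 (45 counts). In SjSS it went from 0.105 to 1.96 CPM. *Chil3* was at 1.08 CPM in Control B6 and 0.418 CPM in AC B6. *Mrc1*, the mannose receptor, fell by 1.42 with ACs in B6 (edgeR adjusted p = 3.87e-10), and in SjSS the difference was -0.06 (edgeR adjusted p = 0.596). *Arg1*, arginase 1, fell by 1.15 in SjSS (edgeR adjusted p = 0.000336), and in B6 the difference was -0.20 (edgeR adjusted p = 0.53).

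Of 7 co-repressors and turnover factors of IRFs, 1 was called higher and 1 lower with ACs in SjSS, against 12.9% of all tested genes. In B6 none was called by edgeR or DESeq2, against 4.47% of all tested genes, and 4 of 7 had an unadjusted p under 0.05. *Trim21*, which encodes the ubiquitin ligase and Sjögren's autoantigen Ro52 that marks IRF proteins for turnover, rose by 3.10 in SjSS (edgeR adjusted p = 1.65e-15) and 0.80 in B6 (edgeR adjusted p = 6.91e-07). *Irf2bp2*, which encodes a co-repressor of IRF2, and its relative *Irf2bpl* fell in SjSS by 1.15 and 1.44 (edgeR adjusted p = 2.38e-09 and 9.02e-11). In the strain by AC interaction their values were -1.04 and -1.10, opposite in sign to that of *Irf2*.

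The genes most alike to each member were those with the highest Pearson correlation of log2 CPM over the 18 samples, among 10024 genes with a mean of at least 5 CPM. The samples share 6 groups, so these values mostly describe group means. *Il15ra*, *Mxd1* and *Polr2g* were most alike to *Irf1* (r = 0.991, 0.990 and 0.990), and *Rnaset2b*, *Trafd1* and *Tmem229b* to *Irf2* (r = 0.988, 0.985 and 0.975). *Irf9* was followed by the interferon-stimulated genes *Ifit3*, *Trex1* and *Ifit3b* (r = 0.991, 0.990 and 0.989), and *Irf7* by *Oasl1*, *Lrrc41* and *Ifitm3* (r = 0.978, 0.970 and 0.970). *D5Ertd579e*, *Sertad1* and *Slc30a1* were nearest to *Irf5* (r = 0.970, 0.970 and 0.967), *Tbxas1*, *Abhd15* and *Naglu* to *Irf8* (r = 0.975, 0.975 and 0.971), *Narfl*, *Ap3d1* and *Ap5b1* to *Irf3* (r = 0.929, 0.924 and 0.924) and *Msh3*, *Ttc38* and *Slc8a1* to *Irf4* (r = 0.947, 0.926 and 0.925). The correlation of *Irf1* with *Irf2* was 0.87 and with *Irf3* -0.71 over the same samples.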

How the data were processed

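RNA-seq of 18 BMDM samples was analysed. Alignment by the authors used STAR and mm10, and quantification used the Partek E/M tool, which divides reads that match several features. The deposited values were estimated counts per gene, not normalized (41.1% not whole, tolerance 1e-06). No gene in the table had a total under 10. Estimated counts were rounded. Genes were kept by filterByExpr (15789 of 20615), TMM factors scaled the libraries, and all 18 samples entered a single fit of 6 group means by the quasi-likelihood method of edgeR 4.0.16 in R 4.3.3, with Benjamini-Hochberg adjustment over all tested genes in each of 11 comparisons. The thresholds of the study's methods were used. SE is the log2 fold change divided by the square root of F. Groups came from the labels, and p values measure the spread between these samples.

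The IRF members and the gene lists were chosen with earlier results of these data known. Genes named beside the members are those of the lists with the 2 largest or 2 smallest log2 fold changes in the AC response of SjSS or the strain by AC interaction, the 3 most correlated genes per member (prior count 2) and overlapping or neighbouring genes. Positions follow GENCODE M21, and promoter windows are the 250 bases before each RefSeq start. Of the lists, marker sums are given in CPM. Alternatives were DESeq2 1.42.0, its size factors in edgeR, other filters and thresholds, unrounded counts, only the compared groups, replicate blocks, leaving out each sample, other lengths and, chosen after seeing the data, library totals as scaling. Some named genes of the lists are not reported here. Scripts were tested on simulated data. Figures used Python 3.11.15 and matplotlib 3.10.9.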

Additional observations from a re-analysis of the deposited data

Results flagged for a closer look

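For 6 of the 8 IRF genes the strains' responses differed by the test of the difference itself (edgeR, adjusted p under 0.05) in the AC or the CpG response. By treatment 5 of 8 passed for ACs against 37.9% of all tested genes, and 3 of 8 for CpG against 5.85%. The share of all tested genes past either test was not computed. In the AC response the difference, SjSS minus B6 on the log2 scale, was 3.31 for *Irf1*, 1.39 for *Irf2*, 1.15 for *Irf5*, 0.53 for *Irf9* and -0.53 for *Irf3*. In the CpG response it was 0.61 for *Irf5*, -0.93 for *Irf7* and -0.53 for *Irf9*. *Irf7* is among the 6 through CpG alone (adjusted p = 0.0414), a value that did not pass for 12 of the 18 samples when 1 at a time was left out. *Irf9* and *Irf5* were the members past the test for both treatments, *Irf5* with the same sign and *Irf9* with opposite signs, but the AC value of *Irf9* did not pass with library totals as scaling (0.19, adjusted p = 0.163). Groups of 3 samples were not examined for outlying samples.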

How the results depend on the processing

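Over the 11 comparisons, DESeq2, its size factors in edgeR, both other filters on low counts, unrounded counts and fits of only the compared groups left the number of IRF genes called within 1.5 times the reported number and changed no call of a member at both thresholds. With a log2 fold change over 2 the number called was 2 in the AC response of SjSS, 0 in both CpG responses, and 1 in the strain difference with ACs, the strain by AC interaction and ACs against CpG in SjSS. With a fold change over 1.3, the form in which a figure legend of the study words the threshold, it was 4 and 7 in the AC responses of B6 and SjSS, 5 and 3 in the CpG responses, 2 between untreated strains, 5 between strains with ACs, 5 and 3 in the interactions with AC and CpG, and 5 and 7 for ACs against CpG in B6 and SjSS. With library totals as scaling, chosen after seeing the data, it was 1 in the strain difference with ACs and 1 in the strain by AC interaction. Under that scaling 1 of the 88 member values, having passed the adjusted p, turned: *Irf8* in the strain difference with ACs, at -0.11. Leaving out 1 sample at a time gave 0 to 1 called between untreated strains (1 without Control B6 replicate 3) and 0 to 1 in the CpG response of SjSS (0 without CpG SjSS replicate 2) and turned no member value that had passed the adjusted p. With the longest transcript as length, 38 of 48 levels per kb moved by more than their SD.

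With the replicate number as a block, shared between strains or within strain, the number called was unchanged in each comparison that could be fitted, for example 4 in the AC response of SjSS and 1 in that of B6. The strain by CpG interaction of *Irf3* (-0.33, edgeR adjusted p = 0.0505) passed with either block (adjusted p = 0.0413 and 0.0358) and with DESeq2 (adjusted p = 0.0118), and that of *Irf2* (-0.25, edgeR adjusted p = 0.0909) with the block within strain (adjusted p = 0.0333). Strain differences could not be fitted with the block within strain. Same-numbered samples of a strain had correlated deviations of 0.02 to 0.264 (18 pairs, 9 over 0.1), and other pairs of the strain -0.252 to 0.074, but the labels do not say that a number marks a mouse. Depth was lowest for *Irf4*, with 9 to 72 counts per library.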
